A study of Mus musculus with 6 samples.

Results

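The p53 pathway was described as 34 genes, made up of Trp53 itself, its feedback genes and partners, and known targets and related genes. They were chosen for their known place in the pathway, with earlier results of these data known, and each was read from the probe set that the array annotation gives to that gene alone. Of the 34 genes, 31 could be read in this way, among 19938 genes with such a probe set, and each of the 31 had a single probe set. Trp53, Bax and Gdf15 had no such probe set in the annotation used and were not analysed here, so that the level of Trp53 itself is left out of everything below.

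The cells were N2A, which grow from a mouse neuroblastoma. They were transfected transiently with a construct that expresses an shRNA to Dali, a long non-coding RNA (Dali knockdown, 3 arrays), or with a non-targeting vector (control, 3 arrays). Both groups received 1.5 ug of construct. Their RNA was extracted within a range of times that the study's methods give, taken here as about 2.5 days. The legend of the study's figure on this knockdown gives the upper end of that range. The RNA was hybridised to Affymetrix Mouse Gene 1.0 ST arrays. Each group is therefore a transfected pool read as a whole, with a single construct per group and no untransfected cells. Values are log2 RMA values, in which a difference of 1 is a doubling. Dali had no annotated probe set, so its depletion was not analysed here.

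The protein p53 is a transcription factor that is kept scarce by the ubiquitin ligase Mdm2 and its partner Mdm4. When DNA is damaged, the kinases Atm, Atr, Chek1 and Chek2 free p53 from this control, and it then switches on genes that halt the cell cycle, repair or tolerate damage, restrain growth signalling or trigger apoptosis. Several of its targets, Mdm2 and Ccng1 among them, act back on p53 and limit the response. Many targets also answer to other factors, so that their RNA is not a measure of p53 alone.

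The labelled cell type was checked against sympathetic neuroblast markers, of which 9 were measured (Hand2, Gata3, Mycn, Th, Dbh, Chga, Chgb, Stmn2 and Tubb3) and lay between 8.40 and 13.6 log2 units on every array. The summed linear level of the 9 ran from 40720 to 41760 in Dali knockdown arrays and from 44030 to 47030 in control arrays. The groups therefore did not overlap, and 8 of the 9 had a lower mean in knockdown cells, against 8976 of all 19938 genes. Of the 4 kept by the variance filter described below, 0 were called by limma in either fit, and 1 of the 9 had an unadjusted p under 0.05. The part of this shift in the results below was not tested. The summed levels of glial, fibroblast, macrophage and endothelial markers overlapped between the groups. Their highest values were 8.15, 8.81, 7.77 and 9.41 log2 units, so that fibroblast and endothelial markers reached above the lowest neuroblast value. In such bulk samples, fewer cells of a type and less RNA per cell cannot be told apart.

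DNA binding by p53 uses a 10-base half-site consensus, and a full site is a pair of these half-sites a short distance apart. The consensus is a palindrome, so both strands give the same matches. RefSeq promoter windows of GRCm38.p6, from 250 bases before to 50 bases after each annotated start, were found for 25 of the 31 genes. A half-site was present in 10 of their 32 windows (31.2%), against 8.36% of 32851 windows of all genes. These 10 windows belong to 9 genes and hold 9 distinct matches, since overlapping windows of Aen share one. A full site with a spacing of up to 13 bases was present in 0 of the 32 and in 0.0731% of all windows. Only exact matches inside these windows were counted, so that sites with a mismatch or outside the windows would be missed. The matches of the feedback genes are shown because 4 of these genes hold one while only Ccng1 was called below, with the matched half-site in capitals and the strand of the gene in each case.
Ccng1, chr11:40755452-40755481, minus strand: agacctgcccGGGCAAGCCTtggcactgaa
Mdm2, chr10:117710925-117710954, minus strand: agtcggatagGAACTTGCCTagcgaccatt
Ppm1d, chr11:85311112-85311141, plus strand: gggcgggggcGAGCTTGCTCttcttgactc
Rchy1, chr5:91962627-91962656, minus strand: cactatgacaGAGCTTGTCTcctcaaggtg
A match is a description of these letters and not evidence of binding. The first base of the match lay at -185 from the start in Ccng1, -186 in Mdm2, -132 in Ppm1d and -90 in Rchy1. The remaining matches were in Aen, Ei24, Gadd45a, Polk and Sesn1, and of the 5 windows found for the genes called lower below in either fit, only that of Ccng1 held one.

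Among the 31 genes, the fit without the replicate block described below called Ccng1 and Plk3 lower after Dali knockdown and called none higher. Calling needed at least a 1.3-fold difference and an adjusted p (Benjamini-Hochberg, over all probe sets tested) under 0.1, after a filter that kept the more variable of all annotated probe sets. The filter kept 23 of the 31 genes, of which 0 were called higher and 2 lower, while 21 were not called. At an unadjusted p under 0.05 there were 10 of the 31, all of them kept by the filter, against 12.7% of all probe sets with the filter and 10.7% without it. Over all 11705 probe sets tested, 1.14% were called, 0.367% higher and 0.769% lower. After centring each array on its median these shares were 0.94% higher and 0.88% lower (110 and 103 probe sets, against 43 and 90), and Ccng1 and Plk3 were still the only genes of the 31 called. Without control replicate 1, control replicate 2 or knockdown replicate 1, 0 of the 23 were called. Over all probe sets, calls in these 3 fits lay between 0.0171% and 0.265% higher and between 0.0598% and 0.453% lower. With the replicate number as a block, 1 of the 23 genes was called higher (Sesn2) and 7 lower (Ccng1, Plk3, Gadd45b, Btg2, Zmat3, Phlda3 and Trp53inp1). Calls were also common elsewhere in that fit, at 7.65% of probe sets, 2.77% higher and 4.89% lower. The median difference over the 31 genes was -0.03 on the log2 scale, against 0.02 over all genes. A lower mean in knockdown cells was seen in 19 of the 31, against 8976 of all 19938 genes. With each array centred, the medians were -0.0040 over the 31 genes and 0.05 over all genes.

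**Figure D1:**
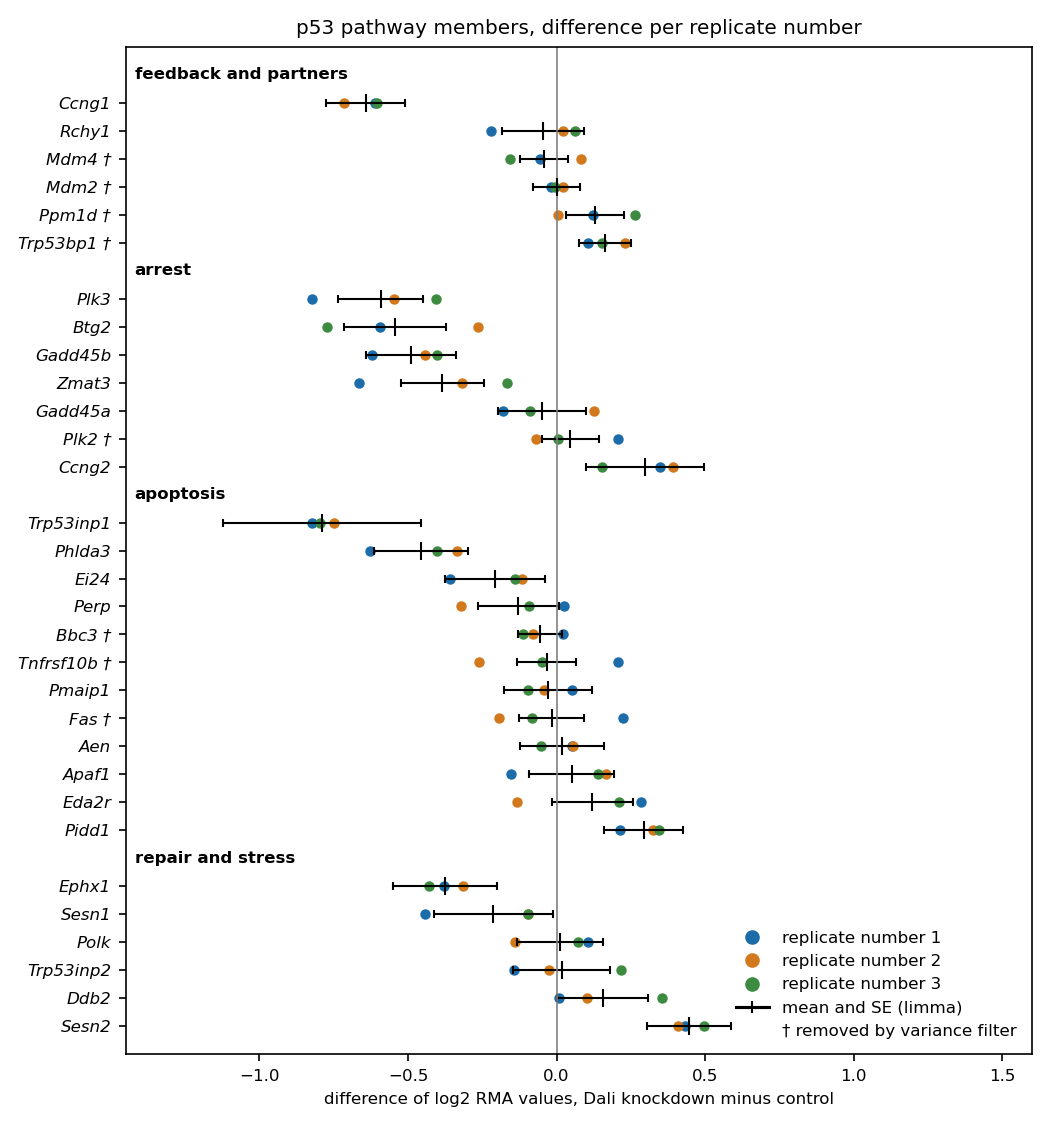
Difference of log2 RMA values, Dali knockdown minus control, for the 31 genes by role (vertical axis). Coloured points are differences between arrays that share a replicate number, black bars the mean with its SE from limma, and a dagger marks genes removed by the variance filter. Arrest genes include 4 of 7 that lie below 0 at every number, against 20% of all genes. Mdm2 stands at 0, and Sesn2 lies between 0.41 and 0.50.

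Among the genes that regulate p53, only Ccng1 was called. Ccng1 encodes cyclin G1, a p53 target that brings a phosphatase to Mdm2. Its log2 values were 10.77, 10.79 and 10.68 in Dali knockdown arrays, against 11.38, 11.50 and 11.28 in control arrays. All knockdown arrays lay below all control arrays, with a gap wider than the range within either group. The mean was 10.75 ± 0.06 in knockdown and 11.39 ± 0.11 in control cells (SD, n = 3 each), 1.56-fold lower (difference -0.64, SE 0.13, limma adjusted p = 0.053, or 0.0081 with the replicate block). The differences at replicate numbers 1, 2 and 3 were -0.61, -0.71 and -0.60, so that all 3 numbers gave nearly the same value. The call was lost without control replicate 1 (adjusted p = 0.13), control replicate 2 (0.19) or knockdown replicate 1 (0.22), and when rows with no gene symbol entered the filter (0.40), although the difference stayed between -0.70 and -0.585 whichever of the 6 arrays was left out.

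Mdm2, the ubiquitin ligase that degrades p53 and is itself a p53 target, did not follow Ccng1. Its values were 10.992, 11.022 and 11.095 in Dali knockdown arrays, against 11.010, 10.999 and 11.100 in control arrays. The groups overlapped throughout. The means were 11.04 ± 0.053 in knockdown and 11.04 ± 0.055 in control cells (SD, n = 3 each), and the 95% interval of the difference ran from -0.18 to 0.18 (limma adjusted p = 1). Differences at the 3 replicate numbers lay between -0.02 and 0.02. The interval for Mdm2 did not overlap that for Ccng1, which ran from -0.925 to -0.36. The interval for Mdm2 comes from the fit without the variance filter and that for Ccng1 from the fit with it. The difference between the genes was not tested.

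The other regulators were not called. Mdm4, which blocks the activation domain of p53, had a difference of -0.04, with a 95% interval from -0.23 to 0.14. Rchy1, a further ubiquitin ligase for p53, differed by -0.05 (-0.34 to 0.25). Ppm1d, a phosphatase that dampens damage signalling and p53, differed by 0.13 (-0.09 to 0.35), and Trp53bp1, which binds chromatin beside double-strand breaks, by 0.16 (-0.04 to 0.36). The last of these was the largest positive difference among the regulators, with 10.67, 10.74 and 10.56 in Dali knockdown arrays against 10.56, 10.51 and 10.41 in control arrays. The groups overlapped narrowly, and the knockdown array was the higher at all 3 numbers. Apart from Ccng1 and Rchy1, the genes of this role were removed by the variance filter, and their values come from the fit without it (limma adjusted p from 0.59 to 1).

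Cdkn1a, the p21 gene, was not analysed here and is not among the arrest genes. Of 7 genes of arrest and growth restraint measured, 5 had a lower mean, and the median difference was -0.38, the lowest of the 4 roles. In 4 of them, Plk3, Btg2, Gadd45b and Zmat3, all knockdown arrays lay below all control arrays. Over all 31 genes this held for 6 (19.4%), against 7.11% of all genes. A separation in the opposite direction was seen in 2 of the 31 (6.45%), Sesn2 and Pidd1, against 8.47% of all genes.

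Plk3 encodes a polo-like kinase of the stress response. Its values were 10.69, 10.95 and 10.79 in Dali knockdown arrays, against 11.51, 11.50 and 11.19 in control arrays. The lowest control array, replicate 3, still lay above the highest knockdown array. The mean was 10.81 ± 0.13 in knockdown and 11.40 ± 0.18 in control cells (SD, n = 3 each), 1.51-fold lower (limma adjusted p = 0.085, or 0.013 with the replicate block). The differences at numbers 1, 2 and 3 were -0.82, -0.55 and -0.41. The call for Plk3 did not survive loss of any of control replicates 1 and 2 or knockdown replicates 1 and 3 (adjusted p from 0.11 to 0.37), nor the fit without the variance filter (0.13) or with rows that carry no gene symbol in it (0.40).

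Gadd45b, a small stress-induced protein of growth arrest and MAP kinase signalling, followed the same direction. Its values were 8.89, 9.13 and 8.77 in Dali knockdown arrays, against 9.51, 9.58 and 9.17 in control arrays. Replicate 3 was the lowest array of both groups, and the groups were separated by a narrow margin. Gadd45b was 1.40-fold lower (limma adjusted p = 0.16, or 0.014 with the replicate block, where it was called). The related Gadd45a, a classical p53 target, differed by -0.05, with a 95% interval from -0.36 to 0.26, and its groups overlapped.

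Btg2 is an antiproliferative protein that promotes removal of poly(A) tails. Its values were 8.66, 9.15 and 8.40 in Dali knockdown arrays, against 9.26, 9.42 and 9.17 in control arrays. Knockdown replicate 2 came close to the control arrays, while the other 2 knockdown arrays lay well below them. Btg2 was 1.46-fold lower (limma adjusted p = 0.17, or 0.020 with the replicate block, where it was called).

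Zmat3 encodes an RNA-binding zinc finger protein induced by p53. Its values were 8.37, 8.60 and 8.62 in Dali knockdown arrays, against 9.04, 8.92 and 8.79 in control arrays. The groups did not overlap, but the differences at numbers 1, 2 and 3 were uneven, at -0.67, -0.32 and -0.17. It was 1.305-fold lower, at the edge of the fold threshold (limma adjusted p = 0.24, or 0.054 with the replicate block, where it was called). That call was lost when number 1 (0.11) or number 2 (0.12) was left out of the blocked fit.

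Ccng2 went the other way among the arrest genes. It encodes cyclin G2, an inhibitory cyclin related to cyclin G1. Its values were 10.74, 10.68 and 9.95 in Dali knockdown arrays, against 10.39, 10.29 and 9.79 in control arrays. Replicate 3 was the lowest of both groups, so that the groups overlapped, although knockdown was the higher at each number. The difference of 0.30 was not called (limma adjusted p = 0.57, or 0.059 with the replicate block, with a fold of 1.23 that misses the threshold). Leaving out 1 array moved it to between 0.115 (without control replicate 3) and 0.55 (without knockdown replicate 3), without a call. The difference at numbers 1, 2 and 3 was 0.35, 0.39 and 0.15 for Ccng2, against -0.61, -0.71 and -0.60 for Ccng1. Plk2, a relative of Plk3, differed by 0.05 with a 95% interval from -0.17 to 0.27, at a low level (percentile 20.9 of mean level over all genes).

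**Figure D2:**
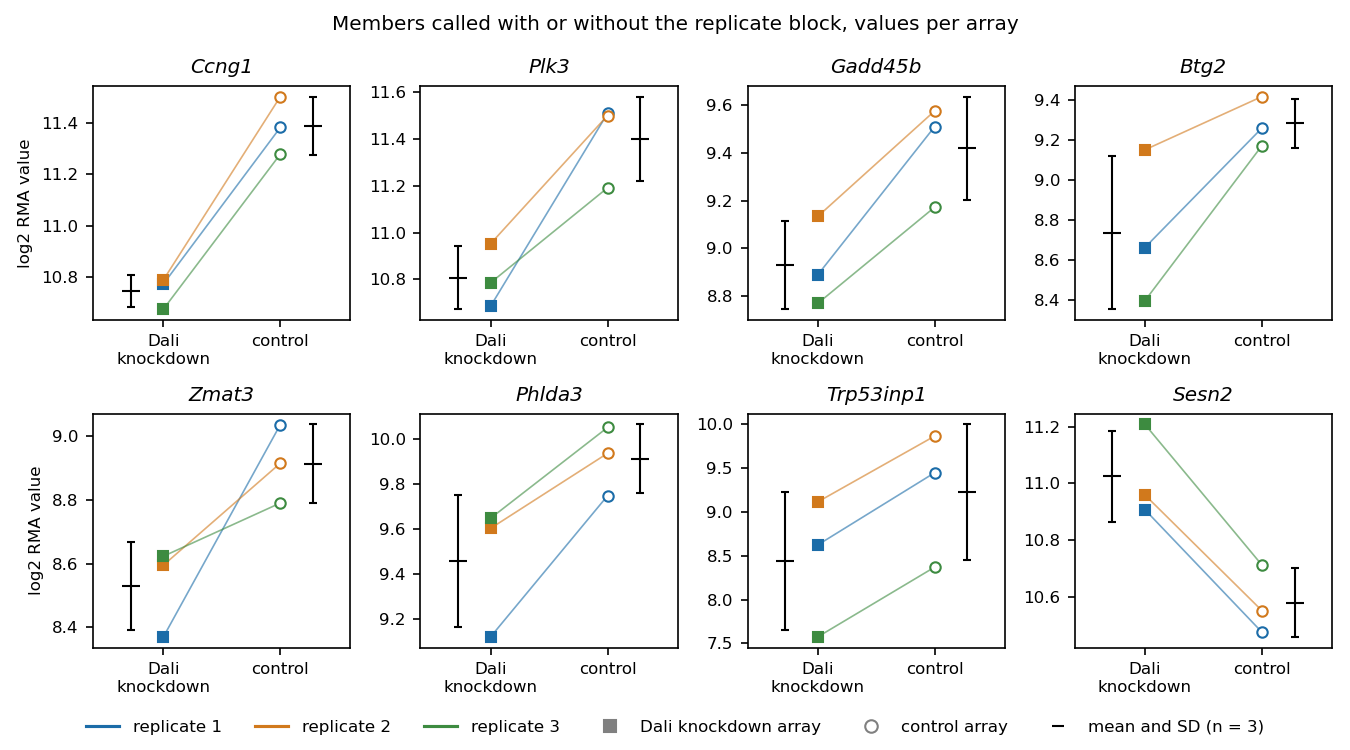
Log2 RMA values of the 8 genes called in the fit with the replicate block, with Dali knockdown arrays (filled squares) to the left and control arrays (open circles) to the right. Colours mark replicate numbers, lines join arrays of a number, and black bars give the mean and SD (n = 3). Every line runs upward to the right except for Sesn2, and Trp53inp1 shows replicate 3 far below the other arrays in both groups.

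The apoptosis genes were mostly level, with 2 exceptions that were called lower with the replicate block. Of 12 measured, 8 had a lower mean, the median difference was -0.03, and 0 of the 9 kept by the variance filter were called by limma without the block, with 3 of the 12 at an unadjusted p under 0.05 (12.7% of all probe sets with the filter). Most genes of the cell death machinery itself differed little. Bbc3 (PUMA) and Pmaip1 (NOXA), which neutralise survival proteins of the BCL2 family, differed by -0.06 (95% interval -0.23 to 0.11) and -0.03 (-0.34 to 0.28). The death receptor genes Fas and Tnfrsf10b differed by -0.02 and -0.03, and Apaf1, the scaffold of the apoptosome, by 0.05. Eda2r, a receptor of the same family as Fas, differed by 0.12, and Perp, a membrane protein of cell junctions, by -0.13. Aen, a p53-induced nuclease, differed by 0.02. For each of these the groups overlapped and the difference took both signs across the replicate numbers. Some of them had low levels, at percentiles of mean level over all genes of 10.9 for Fas, 9.49 for Eda2r, 22.2 for Tnfrsf10b and 28.7 for Perp. At such levels a small difference says little about the RNA.

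Trp53inp1 had the lowest difference of all 31 genes. It encodes a stress protein that promotes p53 phosphorylation and takes part in autophagy. Its values were 8.62, 9.12 and 7.58 in Dali knockdown arrays, against 9.45, 9.87 and 8.37 in control arrays. The groups overlapped because replicate 3 lay more than 1 log2 unit below replicate 2 in both of them. Within a number the difference hardly varied, at -0.82, -0.75 and -0.80. The means of 8.44 ± 0.79 in knockdown and 9.23 ± 0.77 in control cells (SD, n = 3 each) were 1.73-fold apart, with limma adjusted p = 0.33 and an SE of 0.33 without the block. With the block the SE was 0.08 and the adjusted p 0.0064, and the gene was called lower. Without the block the difference depended on the balance of the numbers, at -1.22 without control replicate 3 and -0.36 without knockdown replicate 3.

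Phlda3, which holds back the survival kinase Akt by competing for membrane lipids, was the other. Its values were 9.12, 9.60 and 9.65 in Dali knockdown arrays, against 9.75, 9.94 and 10.05 in control arrays. The groups did not overlap, and knockdown replicate 1 was the lowest array by a wide margin. It was 1.37-fold lower (limma adjusted p = 0.22, or 0.020 with the replicate block, where it was called). With number 1 left out of the blocked fit its difference was -0.37, under the fold threshold. Ei24, a p53-induced protein of the endoplasmic reticulum, was also the lower in knockdown at each number (-0.36, -0.12 and -0.14) but was not called in either fit (adjusted p = 0.67, or 0.15 with the block).

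Pidd1 had the largest positive difference of the apoptosis genes. It encodes the scaffold of the PIDDosome, which activates caspase-2. Its values were 8.80, 8.77 and 8.93 in Dali knockdown arrays, against 8.59, 8.45 and 8.59 in control arrays. All knockdown arrays lay above all control arrays. The difference of 0.29 was 1.23-fold, which is below the fold threshold, with limma adjusted p = 0.37, or 0.051 with the replicate block.

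Genes of repair, detoxification and metabolic stress were divided. Of 6 measured, 4 had a higher mean and 2 a lower mean, and the median difference was 0.01. None was called without the block, and 2 of the 6 had an unadjusted p under 0.05 (12.7% of all probe sets with the filter). Of the sestrins, stress proteins that restrain the growth kinase complex mTORC1, Sesn2 had a higher and Sesn1 a lower mean in knockdown cells. The values of Sesn2 were 10.91, 10.96 and 11.21 in Dali knockdown arrays, against 10.48, 10.55 and 10.71 in control arrays. All knockdown arrays lay above all control arrays, and the differences of 0.43, 0.41 and 0.50 were close to each other. It was 1.36-fold higher (limma adjusted p = 0.17, or 0.015 with the replicate block, where it was called), and was the only one of the 31 genes called higher in that fit.

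Sesn1 gave values of 10.02, 10.56 and 9.82 in Dali knockdown arrays, against 10.47, 10.65 and 9.91 in control arrays. The groups overlapped, with replicate 3 the lowest of both. Its difference was -0.21, with a 95% interval from -0.63 to 0.21, against 0.15 to 0.74 for Sesn2. These intervals, both from the fit without the block, overlapped slightly. The difference was -0.44 at number 1 but -0.10 at both other numbers, and leaving out 1 array moved its mean to between -0.43 and -0.054.

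Ephx1, an epoxide hydrolase of detoxification, had values of 11.41, 11.93 and 11.32 in Dali knockdown arrays, against 11.79, 12.24 and 11.75 in control arrays. Replicate 2 was the highest of both groups, which made them overlap, but knockdown was the lower at each number by -0.38, -0.32 and -0.43. It passed the adjusted p with the replicate block (0.024) but at 1.297-fold missed the fold threshold, and was not called in either fit (adjusted p = 0.38 without the block). Leaving out 1 array moved the difference to between -0.56 and -0.22 (without knockdown replicate 2 and control replicate 2), and it was called lower without knockdown replicate 2 (0.067) and in the blocked fit without number 2 (0.095). Ddb2, which recognises ultraviolet damage, differed by 0.15 (95% interval -0.17 to 0.47), the translesion polymerase Polk by 0.01 and the autophagy gene Trp53inp2 by 0.02.

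Several of these genes varied more between replicate numbers than between the groups. For each gene the mean of its knockdown and control array was taken at each number, and the range of these 3 means was set against the difference between the groups. The range was 1.52 for Trp53inp1, 0.74 for Sesn1, 0.69 for Ccng2, 0.55 for Ephx1 and 0.53 for Ei24, each above the difference between the groups. It was only 0.17 for Ccng1, 0.24 for Plk3 and 0.05 for Zmat3, whose groups differed by more than that. The difference between groups exceeded this range in 12 of the 31 genes (38.7%), against 23.6% of all genes. Replicate 3 was the lowest array of both groups in 12 of the 31 (38.7%), against 18.4% of all genes. These included Trp53inp1, Sesn1, Ccng2, Btg2, Gadd45b and Ccng1, whereas Phlda3, Ei24 and Sesn2 were lowest at number 1 in both groups. What sets the replicate numbers apart was not tested.

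**Figure D3:**
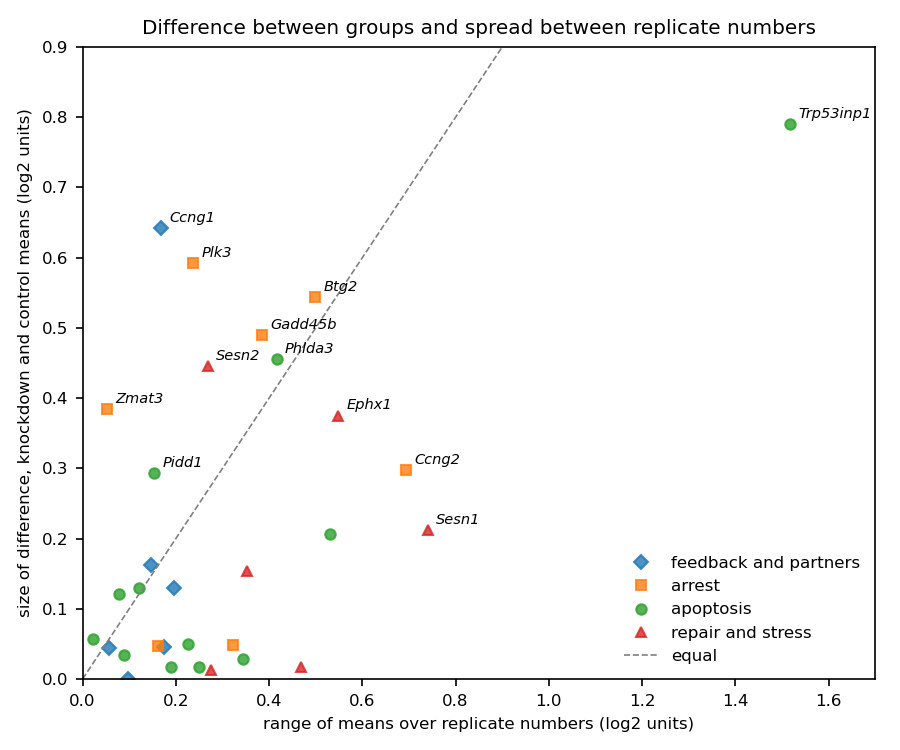
Range of the means over the 3 replicate numbers (horizontal axis, log2 units) and size of the difference between Dali knockdown and control means (vertical axis, log2 units) for the 31 genes, with symbols by role. The dashed line marks equality. Ccng1, Plk3 and Zmat3 lie far above the line, and Trp53inp1 (1.52 and 0.79) lies below it.

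The 4 roles could also be followed number by number. The median of the arrest genes was -0.59, -0.27 and -0.17 at numbers 1, 2 and 3, below 0 at each. The median of the apoptosis genes was 0.04, -0.13 and -0.09, that of the repair and stress genes -0.07, -0.06 and 0.15, and that of the feedback genes and partners -0.04, 0.02 and 0.03. The medians of these last 3 roles therefore took both signs. Over all genes the medians were 0.05, -0.0040 and -0.02. Knockdown was the lower at all 3 numbers in 10 of the 31 genes and the higher in 6, against 20% and 21.5% of all genes.

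Other genes of the pathway came from a list of 27, of which 25 were measured, and had a median difference of 0.03. None of the 17 kept by the filter was called, whereas 7 of the 25 had an unadjusted p under 0.05, against 12.7% of all probe sets with the filter and 10.7% without it. With the replicate block 2 of the 17 were called higher and 0 lower, against 2.77% and 4.89% of all probe sets. Groups were fully separated in 6 of the 25 with knockdown higher (24.0%) and in 3 with knockdown lower (12.0%), against 8.47% and 7.11% of all genes. Knockdown was the higher at all 3 numbers in 10 of the 25 and the lower in 6, against 21.5% and 20% of all genes. Both called genes were kinases that act upstream of p53. Chek1, the checkpoint kinase of replication stress, had values of 10.41, 10.09 and 10.73 in Dali knockdown arrays, against 9.90, 9.38 and 10.01 in control arrays. All knockdown arrays lay above all control arrays, by 1.56-fold in the mean (limma adjusted p = 0.13, or 0.0089 with the replicate block). Chek2, the kinase that relays double-strand breaks, had values of 9.504, 9.404 and 9.482 in Dali knockdown arrays, against 9.375, 8.992 and 8.823 in control arrays. The groups were separated narrowly, with control replicate 1 well above the other control arrays. Chek2 was 1.32-fold higher (limma adjusted p = 0.27, or 0.051 with the replicate block), with differences of 0.13, 0.41 and 0.66 at numbers 1, 2 and 3. Atm and Atr, which activate them, differed by 0.25 and 0.29 and were the higher in knockdown at each number, while Hipk2, a kinase that acts on p53 directly, differed by -0.03.

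The p53 relatives and stabilisers were not called. Trp63 differed by 0.10 and Trp73 by 0.01, and Cdkn2a, whose product p19Arf blocks Mdm2, by -0.08. Cop1, a ubiquitin ligase for p53, differed by 0.30 and Usp7, which removes ubiquitin from p53 and Mdm2, by 0.23. For Cop1 and Usp7 all knockdown arrays lay above all control arrays, and neither reached the fold threshold. Cop1 had 2 probe sets, and only the one with the higher mean was read.

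Of 15 further p53 targets measured, 8 had a higher and 7 a lower mean, and 0 were called in either fit. The largest differences were those of Pcna, the sliding clamp of DNA replication, at 0.36 (limma adjusted p = 0.29), and of Trp53i11, at -0.32 (0.33). Pcna had 2 probe sets, and only the one with the higher mean was read. Xpc, a damage sensor of nucleotide excision repair, differed by -0.30 (0.35), Tigar, a regulator of sugar phosphate breakdown, by -0.18, and Steap3, an iron reductase, by -0.21, and all 3 were the lower at each number. Rrm2b, the p53-induced subunit of ribonucleotide reductase, differed by 0.18 and Gtse1, a mitotic protein that removes p53 from the nucleus, by 0.26. Cdkn1a, the p21 gene and main arrest target of p53, shares its probe set with another gene and was not analysed here.

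**Figure D4:**
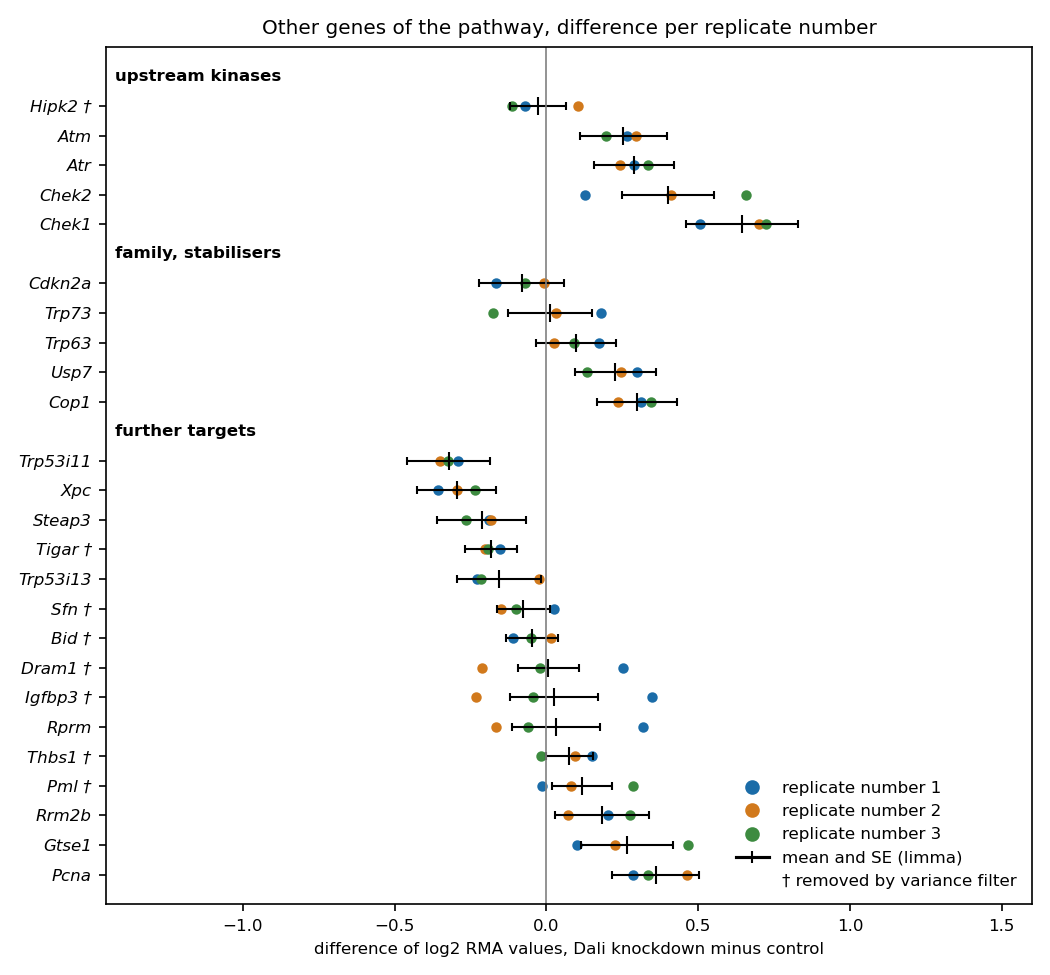
Difference of log2 RMA values, Dali knockdown minus control, for 25 other genes of the p53 pathway (vertical axis). Coloured points are differences between arrays that share a replicate number, black bars the mean with its SE from limma, and a dagger marks genes removed by the variance filter. Chek1 lies between 0.51 and 0.72, and Xpc and Trp53i11 lie below 0 at each number, as 20% of all genes do.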

How the data were processed

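The deposited values are log2 RMA values: the authors background corrected the arrays, applied quantile normalisation and computed gene-level summaries (tool versions are not given in the sources used here). Array medians over annotated probe sets lay between 8.34 and 8.40. Of 35556 rows, the 23410 with at least 1 gene symbol were used, and 1621 of these, which carry several symbols, named no gene. The study's methods give a variance cut-off of 0.5, read here as the median interquartile range over the 6 arrays, which 11705 probe sets exceeded. These were tested in R 4.3.3 by limma 3.58.1, with lmFit, eBayes and two-sided p-values. Genes removed by that filter were read from the same fit without it. The number of arrays limits the precision, and p-values rest on the spread between arrays that the study calls biological replicates, with no culture or transfection day given.

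The 34 genes, their roles, the 27 other pathway genes and the marker lists were chosen with earlier results of these data known. Values on every array are given for genes called in either fit, for Mdm2, and for the largest difference in each direction of each role, and Sesn1 was added after its values were seen. Deviations from the group means correlated between arrays of the same replicate number (0.141, 0.646 and 0.655 for numbers 1, 2 and 3, all above 0.1). For number 1 this was not specific: the correlation of control replicate 1 was higher with knockdown replicate 2 (0.202). The main fit did not include the replicate numbers. Unless the block is named, calls, SEs, intervals and p-values come from fits without it. Values from a fit that includes the numbers as a block are given where a call changed. The SE was 0.33 without and 0.08 with the block for Trp53inp1, and 0.20 and 0.096 for Sesn1. The printed intervals are therefore not those of a paired fit. The residual degrees of freedom were 2 with the block and 4 without it. All fits were first tested on simulated data. Alternatives were the block, the variance filter, array centring, the variance prior, the fold threshold, the choice of probe set and leaving out each array.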

Additional observations from a re-analysis of the deposited data

How the results depend on the processing

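Of the 31 genes, 0 were called higher and 2 lower by limma in the fit without the block. With the replicate block 1 was called higher and 7 lower, and with trend and robust variance priors 1 higher and 4 lower (1.48% and 2.17% of all probe sets). Without the variance filter 1 was called lower, against 0.124% of all probe sets. Averaging the probe sets of each gene in that fit also gave 1 lower, against 0.145% of all genes. The block changed no other call among the 31. With rows that carry no gene symbol in the filter 0 were called lower (adjusted p = 0.40 for both Ccng1 and Plk3), and so were 0 of all 17778 rows then tested, of which 1597 had an unadjusted p under 0.05. Leaving out 1 array gave 0 to 1 higher and 0 to 7 lower, with 0 lower without control replicate 1, control replicate 2 or knockdown replicate 1, and 7 lower without knockdown replicate 2. Over all probe sets the lower calls moved too, between 0.0598% (without knockdown replicate 1) and 4.37% (without control replicate 3). With the replicate block and each number left out in turn, an alternative chosen after seeing the data, 1 was called higher and 5 to 7 lower each time, against 2.34% to 3.61% and 4.32% to 5.38% of all probe sets. Trp53inp1, Btg2, Gadd45b, Ccng1, Plk3 and Sesn2 were called in each of these 3 fits. Centring each array changed the calls over all probe sets to 110 higher and 103 lower, against 43 and 90, and the median over all genes to 0.05, but left the 2 calls here in place. The cause of these changes was not tested. The median difference over the 31 genes stayed between -0.053 and -0.030 when 1 array was left out. No called difference reversed its direction. With 3 arrays a group, the intervals given for genes that were not called bound what the fit without the block could show. The alternatives for Trp53 were not run, since its level was not analysed here.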
